A study of Mus musculus with 10 samples.

Results

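The 10 genes described here encode the calcium cycle of the cardiomyocyte sarcoplasmic reticulum. They are Atp2a2, Pln, Casq1, Casq2, Trdn, Asph, Hrc, Slc8a1, Camk2d and Fkbp1b, chosen by name as the pump, its regulators, the luminal calcium buffers and their anchors, the exchanger, a calcium-dependent kinase and a binding protein of the release channel. All 10 were found among the 23337 genes of the authors' deposited table, and each had an adjusted p-value. The study compared cardiomyocytes (contracting heart cells) of wild-type mice that received adeno-associated virus of serotype AAV9 on postnatal day 1. One group received a vector with GFP and dnMKL1, which blocks the coactivator MKL1 in a dominant-negative way; the control group received the same kind of vector with GFP alone. Both vectors carried the cTNT promoter, which is active in cardiomyocytes, and both were given at 5e+08 viral genomes per gram of body weight. Cells were isolated by collagenase perfusion and sorted on postnatal day 14, so that all animals, controls included, carried virus and GFP for the same time. Each group had 5 biological replicates.

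With each heartbeat, calcium entering the cell opens ryanodine receptors, and these release a larger amount from the sarcoplasmic reticulum, where calsequestrin buffers it. Relaxation follows as the pump SERCA2a returns calcium to the store and the sodium-calcium exchanger moves the remainder out of the cell. Phospholamban holds the pump back until it is phosphorylated by protein kinase A or by the kinase CaMKII. In the weeks after birth the mouse heart comes to depend on this internal store, while T-tubules and their junctions with the reticulum form.

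The table is the authors' own comparison and gives 1 mean per gene over all libraries, called the base mean, in counts normalized for depth. Values of single libraries were not analysed here, so the spread between replicates enters through the standard error (SE) of each log2 fold change, and whether 1 library decides a value is unknown. The mean of each group follows from the base mean and fold change and is called its implied mean. Positive fold changes mean higher in dnMKL1 libraries, a direction read from Mkl1, whose implied mean was 83.9 with GFP alone and 74899 with dnMKL1. Estimated library totals ran from 8803029 to 17228615 counts. In such bulk samples, fewer cardiomyocytes and less RNA per cardiomyocyte cannot be told apart. The cardiomyocyte markers were at high levels in both groups, and 6 of 8 of them (Myh6, Tnnt2, Myl3, Tnni3, Ttn and Ryr2) were lower in dnMKL1 libraries. All 8 had base means of 10000 or more, where 70.7% of all genes tested were lower, a share near theirs. The summed implied means of the 8 markers were 9.06% of all normalized counts with GFP alone and 6.47% with dnMKL1. Most of this was Myh6, with 768373 of 1208080 with GFP alone and 421599 of 706415 with dnMKL1. The part of this fall in the results below was not tested.

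Of the 10 genes, 7 fell, 1 rose and 2 did not pass the threshold, an adjusted p-value under 0.05. The genes that fell were Atp2a2, Casq2, Hrc, Camk2d, Slc8a1, Trdn and Asph, the gene that rose was Casq1, and Pln and Fkbp1b were not past the threshold. The authors' deposited table gives adjusted p-values for 14056 genes, of which 17.4% were lower and 16.6% higher, 34.1% in all. The median log2 fold change was -0.41 for the 10 genes and 0.021 for all genes tested. The share of lower genes depended on expression level. In the table, 40.1% of genes with base means from 1000 to 10000 were lower and 14.4% higher, against 5 and 1 of the 6 genes in that range here. At 10000 or more the share of lower genes was 70.7%, and 2 of the 3 genes here at that level were lower, a share near this background.

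**Figure D1:**
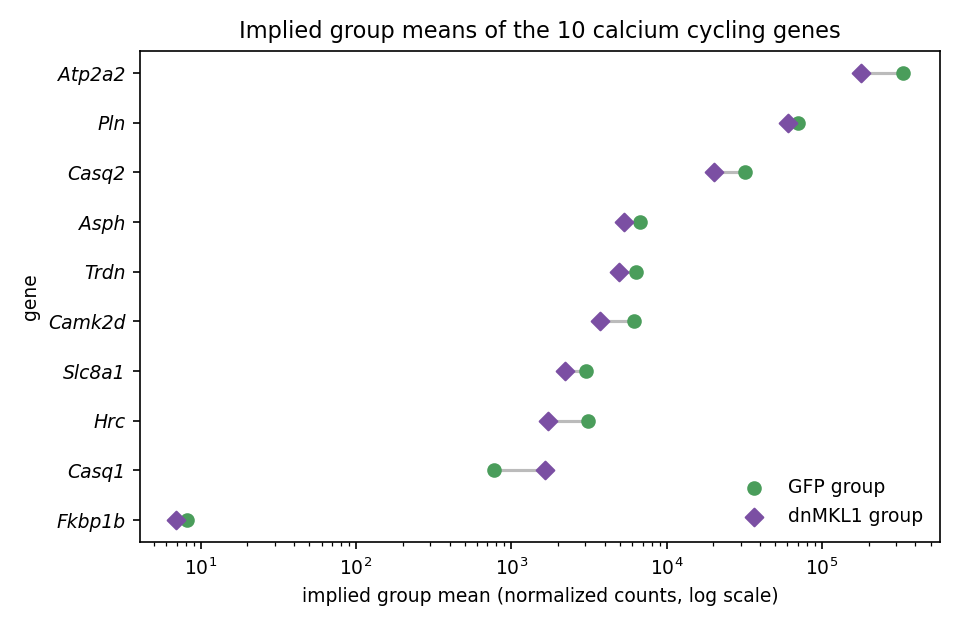
Implied group means of the 10 genes in normalized counts, on a log scale, with a circle for GFP alone and a diamond for dnMKL1, from values of the authors' deposited table. Levels span from 6.98 counts for Fkbp1b to 334554 for Atp2a2, and Casq1 is the gene whose diamond lies to the right of its circle.

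The direction of smaller changes also depended on how the groups were scaled. The implied means of all genes summed to 13330302 with GFP alone and 10915829 with dnMKL1; the log2 ratio was -0.29. If both groups are set to the same total, every log2 fold change rises by 0.29. Under that scaling Atp2a2, Casq2, Hrc and Camk2d were still lower and Casq1 still higher at an adjusted p-value under 0.05, while Trdn, Asph and Slc8a1 no longer passed. Over all genes the calls changed from 2340 higher and 2452 lower to 5685 higher and 927 lower. All values below are on the authors' scaling unless stated.

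**Figure D2:**
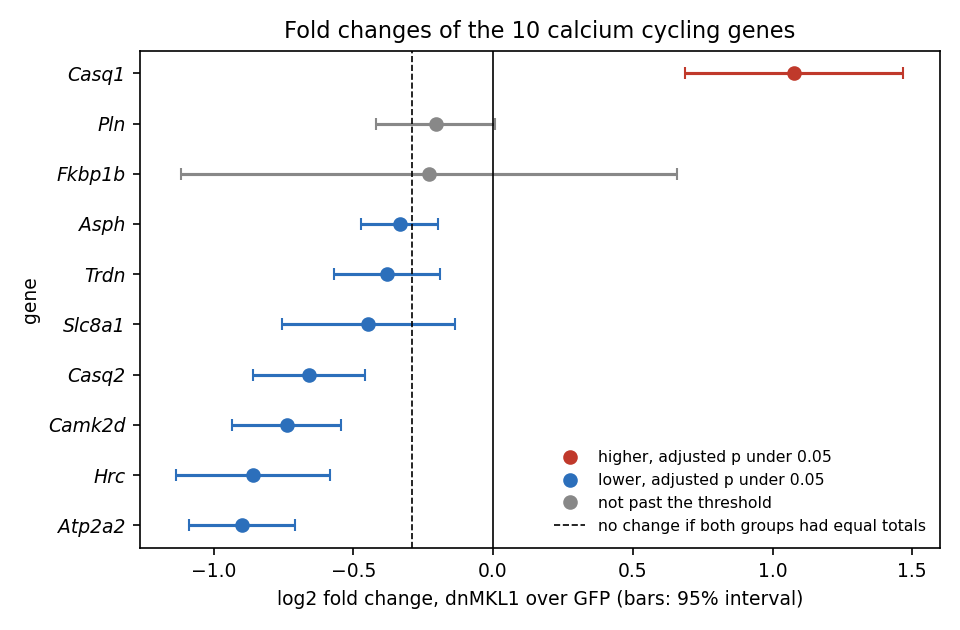
Log2 fold changes of the 10 genes, dnMKL1 over GFP, as points with bars for the 95% interval from the SE in the authors' deposited table. The solid line marks no change on the authors' scaling and the dashed line, at -0.29, no change if both groups had equal totals; the intervals of Atp2a2, Hrc, Camk2d and Casq2 lie wholly to the left of both lines.

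Atp2a2 encodes SERCA2, the pump that refills the store, and is on chromosome 5 (GRCm38, chr5:122453513-122502225, minus strand, in GENCODE M21). By base mean in the authors' deposited table, 257052 normalized counts, it ranked at place 2 of all genes. Its implied mean was 334554 with GFP alone and 179550 with dnMKL1, a decrease of 46.3%. Atp2a2 is listed in the authors' deposited table with a log2 fold change of -0.90 (SE 0.10) and an adjusted Wald p of 1.3e-18. From the SE the 95% interval ran from -1.09 to -0.71. On equal totals it was -0.61 (adjusted p = 3.1e-09, normal test of the deposited fold change over its SE). Among the 140 genes with base means of 10000 or more, 15 had a lower fold change than Atp2a2. The other pump genes were rare in these cells: Atp2a1, the fast skeletal muscle pump, and Atp2a3 had base means of 8.14 and 40.6 in the authors' deposited table. Neither passed the threshold, and their log2 fold changes in the authors' deposited table were -0.47 (SE 0.46) and 0.31 (SE 0.30). Per kilobase of annotated exon, Atp2a2 made up over 99.9% of the 3 pump genes in both groups (99.98% and 99.96%).

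Pln encodes phospholamban, the small membrane protein that restrains the pump (chr10:53337667-53345987, plus strand). It ranked at place 12 of all genes, with implied means of 69847 with GFP alone and 60577 with dnMKL1. Pln is listed in the authors' deposited table with a log2 fold change of -0.21 (SE 0.11) and an adjusted p of 0.138. Its 95% interval ran from -0.42 to 0.0080. On equal totals the value turned to 0.083 (adjusted p = 0.564). Pln was thus not shown to be lower, and, with falls of up to -0.42 within the interval, not shown to be unchanged. Among genes of that high level, where the median log2 fold change was -0.60, 104 of 140 had a lower fold change than Pln.

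The pump and its inhibitor thus differed in their change. The log2 fold change of Atp2a2 minus that of Pln was -0.69, a value that does not depend on scaling. The covariance of the 2 genes is not in the table, so the SE of the difference is not known, but it cannot exceed the sum of both SEs, 0.21. With that widest SE the 95% interval ran from -1.09 to -0.29. The implied mean of Pln per kilobase of exon was 0.460 times that of Atp2a2 with GFP alone and 0.744 times with dnMKL1, or 0.508 and 0.820 times if the longest transcript sets the length. The other short inhibitor that could be compared, sarcolipin (Sln), an atrial protein in mice, had a base mean of 122.6 in the authors' deposited table and a log2 fold change of 1.43 with an SE of 1.55, which is not past the threshold. With it, the atrial markers Nppa, Myl7, Myl4 and Bmp10 had SEs from 0.60 to 2.04. Of the 5 markers, Sln included, only 4 had an adjusted p-value, and 0 of the 4 were under 0.05, against 34.1% of all genes tested. Nppa had a log2 fold change of 1.93 (SE 0.60) in the authors' deposited table, with no p-value. The summed implied means of the atrial list were 2457 with GFP alone and 8136 with dnMKL1, of which Nppa made up 1935 and 7359, and the part of atrial cells in the Sln value was not tested. Myoregulin (Mrln), a further inhibitory peptide, is listed under its older symbol 2310015B20Rik with a base mean of 6.53 and a log2 fold change of -0.85 (SE 0.58) in the authors' deposited table, also not past the threshold.

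Pln is shown with the 250 bases before its RefSeq start (chr10:53337436-53337685, plus strand, GRCm38.p6), since it had the smallest fold change of the 9 genes here with base means of 1000 or more and its window holds both GATA and TATA boxes. Capitals mark a TATA box (TATA, then A or T, then A) and GATA boxes (A or T, GATA, A or G) on either strand.
Pln: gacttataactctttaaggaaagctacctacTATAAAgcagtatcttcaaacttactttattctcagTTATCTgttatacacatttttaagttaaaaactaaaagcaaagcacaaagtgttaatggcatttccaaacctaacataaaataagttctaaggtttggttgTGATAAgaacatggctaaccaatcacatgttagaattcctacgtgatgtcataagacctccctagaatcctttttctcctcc
These windows were available for 7 of the 10 genes (Pln, Casq1, Casq2, Hrc, Slc8a1, Camk2d and Fkbp1b) and were searched on both strands for CArG boxes, which SRF, the DNA-binding partner of MKL1, recognizes, and for MEF2, GATA and TATA boxes. A CArG box (CC, 6 of A or T, GG) was in 0 of the 7 windows, and 1.47% of all 32851 windows of that length hold one. Srf itself, no member of the 10, had a log2 fold change of -0.80 (SE 0.10; adjusted p = 2.6e-13) in the authors' deposited table. GATA boxes were in the windows of Pln, with 2, and Slc8a1, with 3, and 26.5% of all windows hold at least 1. A TATA box was in the Pln window alone among the 7, against 15.6% of all windows, and lay 219 to 214 bases before the start. These matches describe letters in the windows and are not binding sites.

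The calsequestrins, which bind calcium inside the store, moved in opposite directions. Casq2, the cardiac form (chr3:102086415-102146514, plus strand), is a gene in which loss of function is known to cause stress-induced ventricular tachycardia. Its implied mean was 31870 with GFP alone and 20191 with dnMKL1, a decrease of 36.6%. Casq2 is listed in the authors' deposited table with a log2 fold change of -0.66 (SE 0.10; adjusted p = 3.0e-09) and came to -0.37 on equal totals (adjusted p = 0.0011). This fall was not unusual for its level: 61 of the 140 genes with base means of 10000 or more had a lower fold change.

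Casq1, the skeletal muscle form (chr1:172209894-172219868, minus strand), rose from an implied mean of 777 with GFP alone to 1640 with dnMKL1. In the authors' deposited table Casq1 had a log2 fold change of 1.08 (SE 0.20) and an adjusted p of 8.5e-07. The 95% interval of this rise ran from 0.69 to 1.47. On equal totals it was 1.37 (adjusted p = 1.3e-10). Among 1986 genes with base means from 1000 to 10000, 22 had a higher fold change. The difference between the calsequestrins, Casq1 minus Casq2, was 1.74 on the log2 scale, and with the widest possible SE of 0.30 its 95% interval ran from 1.14 to 2.33. Per kilobase of exon, Casq1 was 3.31% of the calsequestrin level with GFP alone and 10.2% with dnMKL1. Casq2 therefore remained the main calsequestrin transcript in both groups.

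The rise of Casq1 was set beside 8 markers of skeletal muscle. Myh4, Myh1 and Pvalb, which define fast skeletal fibres, had base means under 1 normalized count in the authors' deposited table (0.764, 0.0928 and 0.497). Tnnt3, Tnni2 and Mylpf had base means of 1.33, 42.9 and 9.16 there. Their log2 fold changes in the authors' deposited table were 1.42 (SE 1.21; adjusted p = 0.405), -0.056 (SE 0.25; adjusted p = 0.905) and 1.21 (SE 0.58; adjusted p = 0.091), not past the threshold. Ckm and Acta1, which the heart also expresses, had log2 fold changes of -1.51 (SE 0.22; adjusted p = 9.6e-11) and -0.20 (SE 0.23; adjusted p = 0.555) in the authors' deposited table. The summed implied means of the 8 markers were 53985 with GFP alone and 20185 with dnMKL1, most of it Ckm. For the counts of other markers below, 16.6% of all genes tested were higher and 17.4% lower. Of 7 fibroblast markers, 4 were higher in dnMKL1 libraries (Col1a1, Col1a2, Col3a1 and Gsn) and 0 lower, with summed implied means of 3969 and 6253. Of 6 mural markers, 2 were higher (Cspg4 and Myh11) and 1 lower (Acta2), with sums of 17953 and 15567. Most of these sums was Acta2, at 10454 with GFP alone and 4999 with dnMKL1, and Abcc9, at 6332 and 7773. Acta2 was the only mural marker with a lower implied mean in dnMKL1 libraries. Pdgfrb, Rgs5 and Abcc9 did not pass the threshold. Whether the share of mural cells differed was not tested. Of 6 endothelial markers 0 passed the threshold, with sums of 2410 and 2493. The SEs of these 6 ran from 0.29 to 0.35, so smaller changes could not have passed. Of 5 macrophage markers 1 was higher (Cd68), with sums of 134 and 120. Of 5 erythroid markers 3 were listed, with Hba-a1 and Hba-a2 at 0. The remaining one, Alas2, had a base mean of 6.87 and a log2 fold change of 0.27 (SE 0.66), not past the threshold. The part of these cells in the Casq1 value was not tested.

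The calsequestrin promoters are shown because the genes moved apart. Both are the 250 bases before the RefSeq start on GRCm38.p6, for Casq1 chr1:172219896-172220145, minus strand, and for Casq2 chr3:102086165-102086414, plus strand, with capitals for a MEF2 box (C or T, TA, 4 of A or T, TA, A or G).
Casq1: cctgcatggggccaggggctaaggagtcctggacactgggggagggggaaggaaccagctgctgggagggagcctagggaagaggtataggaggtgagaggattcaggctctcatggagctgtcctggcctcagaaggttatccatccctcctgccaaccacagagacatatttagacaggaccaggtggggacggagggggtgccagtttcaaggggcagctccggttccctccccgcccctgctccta
Casq2: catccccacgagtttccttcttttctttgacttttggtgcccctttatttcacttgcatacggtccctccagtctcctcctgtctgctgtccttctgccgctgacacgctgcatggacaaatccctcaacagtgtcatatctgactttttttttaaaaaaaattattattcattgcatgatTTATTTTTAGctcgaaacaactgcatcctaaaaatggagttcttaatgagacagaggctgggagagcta
The Casq2 window holds 1 MEF2 box, from 69 to 60 bases before the start, as 2.92% of all windows do. In the Casq1 window 0 of the 4 motifs had a match.

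Triadin and junctin anchor calsequestrin to the release channel, and the histidine-rich protein Hrc is a further luminal calcium binder. Hrc (chr7:45335290-45338974, plus strand) had the deeper fall, with implied means of 3124 with GFP alone and 1723 with dnMKL1, a decrease of 44.9%. Hrc is listed in the authors' deposited table with a log2 fold change of -0.86 (SE 0.14; adjusted p = 1.5e-08), and 81 of the 1986 genes with base means from 1000 to 10000 had a lower one. Trdn (chr10:33080554-33476709, plus strand) had implied means of 6386 and 4905, a decrease of 23.2%. Trdn is listed in the authors' deposited table with a log2 fold change of -0.38 (SE 0.10; adjusted p = 5.0e-04). Asph (chr4:9448069-9669344, minus strand), which encodes junctin and, from the same locus, a hydroxylase, had implied means of 6697 and 5311, a decrease of 20.7%. Asph is listed in the authors' deposited table with a log2 fold change of -0.33 (SE 0.07; adjusted p = 1.7e-05). On equal totals Hrc kept a value of -0.57 (adjusted p = 2.0e-04), whereas Trdn and Asph came to -0.092 and -0.046 (adjusted p = 0.456 and 0.624). Asph has 20 annotated transcripts, and the table has 1 value for all of them, so that junctin and the hydroxylase are not separated.

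Slc8a1 encodes NCX1, the sodium-calcium exchanger of the cell membrane (chr17:81373105-81738377, minus strand). Its implied mean was 3036 with GFP alone and 2229 with dnMKL1, a decrease of 26.6%. Slc8a1 is listed in the authors' deposited table with a log2 fold change of -0.45 (SE 0.16) and an adjusted p of 0.017, and its 95% interval ran from -0.76 to -0.14. It was the weakest of the 7 falls by p-value, and on equal totals it was -0.16 (adjusted p = 0.437). The exchanger genes Slc8a2 and Slc8a3, known from brain and skeletal muscle, were near the limit of detection, with base means of 0.888 and 3.68 in the authors' deposited table. Slc8a3 rose, with a log2 fold change of 2.42 (SE 0.93; adjusted p = 0.031) in the authors' deposited table, from an implied mean of 1.16 to 6.19, so the size of this rise rests on few reads. Per kilobase, Slc8a1 held 99.8% of the exchanger level with GFP alone and 98.9% with dnMKL1.

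The window before the RefSeq start of Slc8a1 (chr17:81738388-81738637, minus strand, GRCm38.p6) is shown as the one with the most GATA boxes among the 7, marked in capitals.
Slc8a1: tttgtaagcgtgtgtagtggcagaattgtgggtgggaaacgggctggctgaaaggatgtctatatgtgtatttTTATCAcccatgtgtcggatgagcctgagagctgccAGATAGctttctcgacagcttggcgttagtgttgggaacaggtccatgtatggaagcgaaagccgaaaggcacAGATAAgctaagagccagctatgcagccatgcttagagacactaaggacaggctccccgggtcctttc
They lie 177 to 172, 141 to 136 and 68 to 63 bases before the start.

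Camk2d encodes the delta form of CaMKII, the main form in the heart, which phosphorylates phospholamban and the ryanodine receptor (chr3:126596302-126846326, plus strand). Its implied mean was 6206 with GFP alone and 3720 with dnMKL1, a decrease of 40.1%. Camk2d is listed in the authors' deposited table with a log2 fold change of -0.74 (SE 0.10; adjusted p = 4.2e-12) and came to -0.45 on equal totals (adjusted p = 3.3e-05). Among genes with base means from 1000 to 10000, 136 of 1986 had a lower one. The 3 other CaMKII genes went different ways. Camk2g fell, with a log2 fold change of -0.59 (SE 0.11; adjusted p = 6.8e-07) in the authors' deposited table. Camk2b rose, with 0.49 (SE 0.13; adjusted p = 0.0012) there, and Camk2a, at -0.17 (SE 0.14; adjusted p = 0.382), did not pass the threshold. Taking the longest transcript as the length, Camk2d was 82.7% of the CaMKII level with GFP alone and 74.3% with dnMKL1, and Camk2b 5.81% and 12.3%. With the union of exons these shares were 67.5% and 56.6% for Camk2d, whose 28 annotated transcripts cover far more exon sequence than any 1 of them. Splice forms of Camk2d were not separated in the table.

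Fkbp1b encodes calstabin 2 (FKBP12.6), a small protein that binds the ryanodine receptor (chr12:4833174-4841591, minus strand). It was close to the lower end of what was measured, with a base mean of 7.58 in the authors' deposited table, or 75.8 normalized counts summed over all 10 libraries. Implied means were 8.18 with GFP alone and 6.98 with dnMKL1. Fkbp1b is listed in the authors' deposited table with a log2 fold change of -0.23 (SE 0.45) and an adjusted p of 0.763. Its 95% interval reached from -1.12 to 0.66, and the value turned to 0.059 on equal totals. A difference was not detected. Of the genes with base means from 1 to 10, 8.03% were called in either direction. Its paralog Fkbp1a (FKBP12) was far more abundant, with a base mean of 3016, and was listed with a log2 fold change of 0.0043 (SE 0.07; adjusted p = 0.973) in the authors' deposited table.

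**Figure D3:**
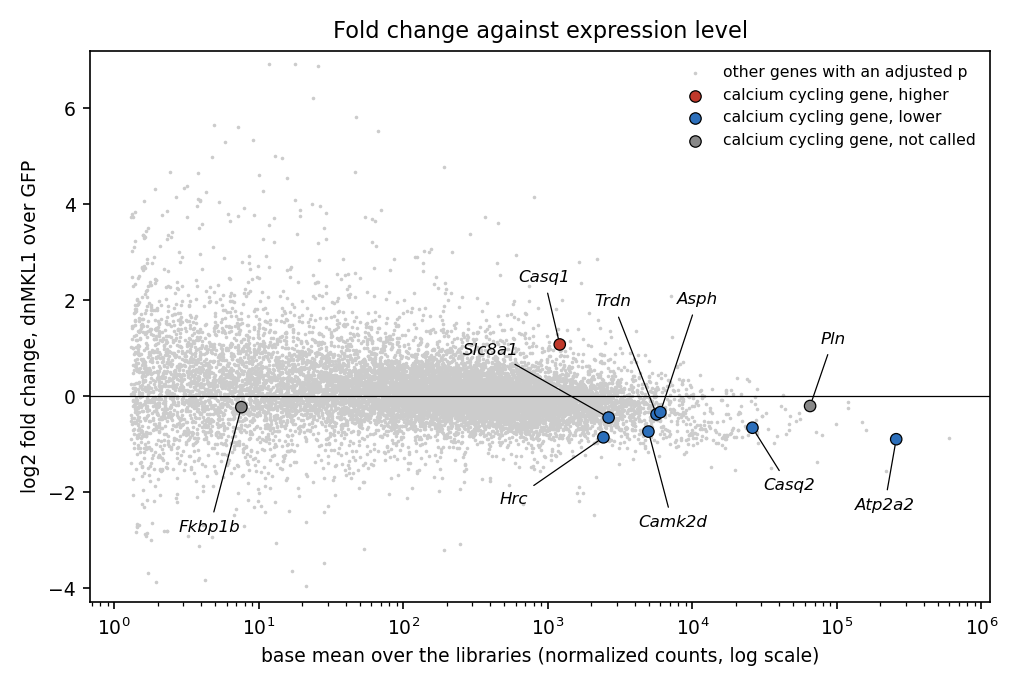
Log2 fold change, dnMKL1 over GFP, against base mean in normalized counts on a log scale, for the genes tested in the authors' deposited table except Mkl1 (grey), with the 10 calcium cycling genes outlined and coloured by call. Casq1, at 1.08, lies at the upper edge of genes of its level, while Pln, at -0.21, lies above most of the genes near it on the right.

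The changes were not uniform among the 10 genes. Of their 45 pairs, 10 differed by more than their widest possible SE allows after Bonferroni adjustment over the pairs. Of these, 8 set Casq1 apart from Atp2a2, Pln, Casq2, Trdn, Asph, Hrc, Slc8a1 and Camk2d, and the other two set Atp2a2 apart from Pln and from Asph. The difference between Atp2a2 and Asph was -0.56, with a 95% interval from -0.89 to -0.24 at the widest SE. Since only an upper limit of the SE is known, the remaining 35 pairs were not shown to change alike. By level per kilobase of exon the order was Atp2a2 (42271 normalized counts per kilobase), Pln (23636), Casq2 (9514), Hrc (944), Casq1 (619), Trdn (604), Asph (373), Camk2d (221), Slc8a1 (140.0) and Fkbp1b (7.42). The table has no SE for a base mean, so neighbours such as Casq1 and Trdn were not shown to differ in level. With the longest transcript as length the first 3 and the last 2 places stayed as they were, while Trdn, Camk2d and Asph moved ahead of Casq1.

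Other genes of calcium handling were taken from a list of 71, of which 69 were found (6 of them under an older symbol) and 65 had an adjusted p-value. Of these 20 were lower and 7 higher, that is 30.8% and 10.8%, against 17.4% and 16.6% of all genes, and their median log2 fold change was -0.070. The count again differed with level: 15 of the 32 listed genes at base means of at least 1000 were lower, where 42.1% of all genes at that level were. Below that level 5 were lower and 5 higher of 33. Of all genes, 8.03% were called in either direction at base means from 1 to 10, 26.7% from 10 to 100 and 39.3% from 100 to 1000. Whether the listed genes below 1000 differed from these shares was not tested. On equal totals 24 of the 65 genes were higher and 9 lower, beside 5685 higher and 927 lower of all 14056 genes tested. The lower calls of Ryr3, S100a1, Cav3, Fxyd1, Ppp1cb, Ppp1r3a, Tmem38a, Calu, Atp2b1, Ppp1ca and Smdt1 were lost under that scaling. Their adjusted p-values there (normal test of the shifted fold change over its SE) ran from 0.057 (Calu) to 0.988 (Tmem38a).

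Among the release channels and their partners, 3 of 11 fell and 2 rose, where 17.4% of all genes were lower and 16.6% higher. Of the 6 with base means of at least 1000, 2 fell, against 42.1% of all genes at that level. Ryr2, the cardiac ryanodine receptor, had a log2 fold change of -0.78 (SE 0.16; adjusted p = 9.6e-06) in the authors' deposited table, from an implied mean of 13188 to 7689. Ryr3 was rare, with a base mean of 30.6, and had -0.97 (SE 0.33; adjusted p = 0.013) there. S100a1, a calcium sensor that acts on SERCA2 and the ryanodine receptor, had -0.30 (SE 0.12; adjusted p = 0.036) in the authors' deposited table. The genes that rose, Itpr1 and Itpr2, encode inositol trisphosphate receptors, the other calcium release channels, and had 0.61 (SE 0.12; adjusted p = 5.6e-06) and 1.46 (SE 0.57; adjusted p = 0.032) in the authors' deposited table. Itpr3, of the same family, had 0.80 (SE 0.37; adjusted p = 0.076) there and did not pass the threshold. Of the 7 pump and store-membrane genes tested, 1 fell and 0 rose, where 17.4% of all genes were lower and 16.6% higher. Base means were under 1000 for 6 of the 7. The gene that fell was Tmem38a, a potassium channel of the reticulum, at -0.29 (SE 0.10; adjusted p = 0.014) in the authors' deposited table and 0.0026 on equal totals.

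Among 6 further luminal proteins, sarcalumenin (Srl), a calcium binder of the muscle store, fell most clearly, with a log2 fold change of -0.70 (SE 0.10; adjusted p = 3.3e-10) in the authors' deposited table and implied means of 23332 and 14346. Calu, which encodes calumenin, had -0.17 (SE 0.06; adjusted p = 0.011) there and 0.12 on equal totals, and Sdf4, the gene of a Golgi calcium binder, rose by 0.46 (SE 0.09; adjusted p = 2.4e-06). Calr and Canx, chaperones of the general endoplasmic reticulum, had values of -0.013 (SE 0.09) and -0.091 (SE 0.09) in the authors' deposited table and did not pass the threshold.

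Of 9 dyad genes tested, 3 fell and 1 rose, where 17.4% of all genes were lower and 16.6% higher. Of the 5 with base means of at least 1000, 2 fell, against 42.1% of all genes at that level. The junctophilins, which tether the reticulum to the cell membrane, had log2 fold changes of -0.84 (SE 0.11; adjusted p = 9.1e-14) for Jph2 and -0.88 (SE 0.12; adjusted p = 5.1e-11) for Jph1 in the authors' deposited table. Cav3, muscle caveolin, had -0.42 (SE 0.11; adjusted p = 8.5e-04) there. Sypl2, a protein of the skeletal muscle triad, rose by 2.49 (SE 0.41; adjusted p = 1.6e-08) in the authors' deposited table, from an implied mean of 4.97 to 28.0 normalized counts. The L-type channel subunits Cacna1c, Cacnb2 and Cacna2d1 had values of 0.0021, -0.019 and -0.15 in the authors' deposited table and did not pass the threshold.

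Of the 14 kinase and phosphatase genes, 5 fell and 2 rose, the CaMKII genes above included, where 17.4% of all genes were lower and 16.6% higher. Of the 8 with base means of at least 1000, 4 fell, against 42.1% of all genes at that level. Genes of catalytic subunits of protein phosphatase 1, which dephosphorylates phospholamban, had log2 fold changes of -0.38 (SE 0.08; adjusted p = 3.8e-05) for Ppp1cb and -0.27 (SE 0.07; adjusted p = 8.6e-04) for Ppp1ca in the authors' deposited table, and Ppp1ca turned to 0.020 on equal totals. The remaining catalytic subunit, Ppp1cc, had -0.18 (SE 0.08; adjusted p = 0.058) there and did not pass the threshold. Ppp1r3a, a targeting subunit of that phosphatase, had -0.37 (SE 0.13; adjusted p = 0.021) there. Prkar2a, a regulatory subunit of protein kinase A, had -0.59 (SE 0.10; adjusted p = 1.7e-07) in the authors' deposited table, while its catalytic subunit gene Prkaca had -0.15 (SE 0.10; adjusted p = 0.216). Pde3a, a phosphodiesterase that degrades cyclic AMP near the pump, rose by 0.48 (SE 0.14; adjusted p = 0.0019) there.

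**Figure D4:**
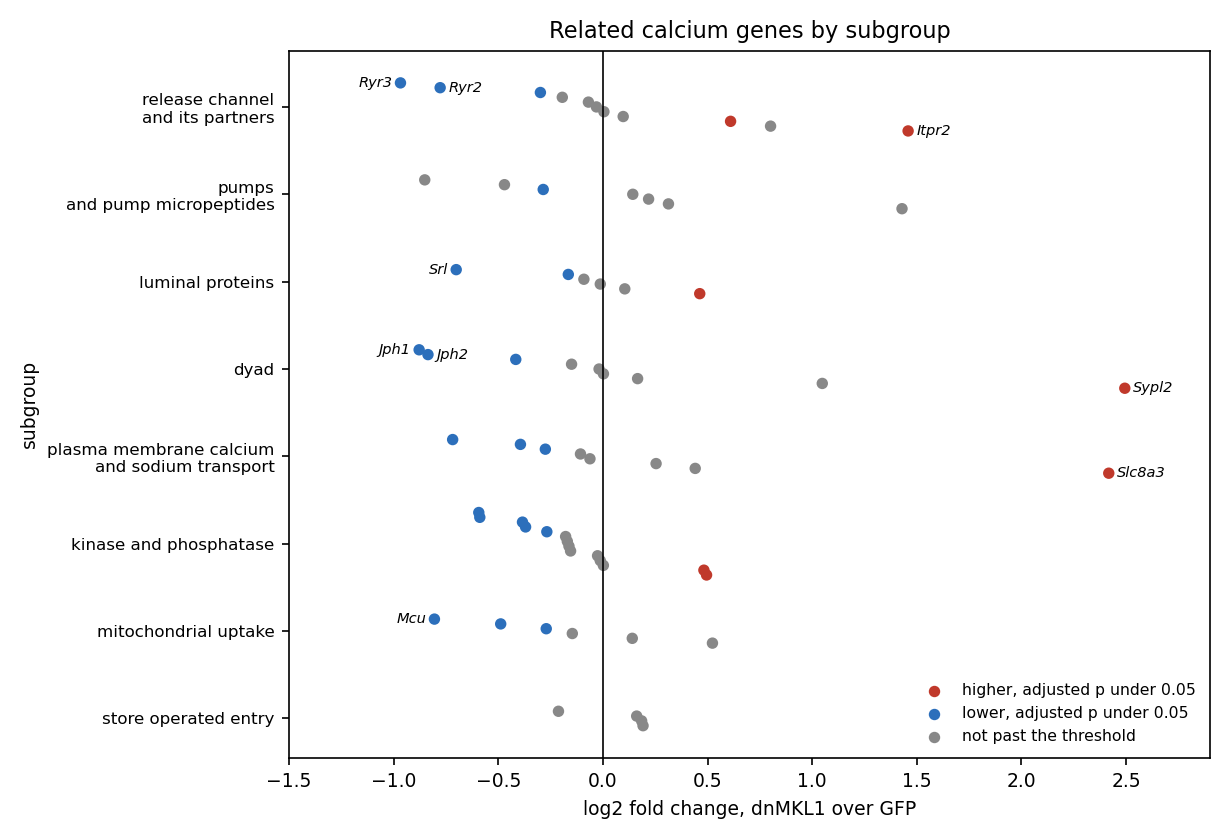
Log2 fold changes, dnMKL1 over GFP, of the 65 related calcium genes tested in the authors' deposited table, 1 point per gene in rows by subgroup (the vertical offset within a row only separates points), coloured by call, with names for most of those called and beyond 0.65 in size. Called genes lie on both sides of 0, with Sypl2 and Slc8a3 farthest to the right and Ryr3, Jph1, Jph2, Mcu and Ryr2 among those farthest to the left.

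Some values may hold reads of overlapping genes, because the use of strand in counting is not given in the sources used here. In GENCODE M21, 59.6% of the exon sequence of Pln lies opposite exons of Gm47644 and 5.11% opposite those of Cep85l. Asph shares 14.3% of its exon sequence with Clvs1 on the opposite strand, whose base mean in the authors' deposited table was 1.54. Casq1 shares 8.00% with the antisense gene Gm17224, Slc8a1 1.57% with an antisense gene, and Atp2a2 1.36% with Gm43361. Trdn, Casq2, Hrc, Camk2d and Fkbp1b shared 0 exon bases with another annotated gene.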

How the data were processed

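RNA from sorted cardiomyocytes of 5 GFP and 5 dnMKL1 replicates was sequenced. Per the labels' protocols, cDNA was made from 10 ng of RNA with a SMART-Seq kit and 8 PCR cycles, and 500 pg of it entered Nextera XT libraries. Per the submitters' processing notes, the tools were CASAVA 1.8, STAR 2.5.3a and featureCounts (Subread 1.5.2), with build mm10; annotation and strand setting are not given in the sources used here. The authors' deposited table has DESeq2 columns per the file headers. Its base mean is a signal, in counts normalized by the authors; the fold change and its SE are log2 values of the authors. The Wald statistic they deposited is a score. The deposited p-values of 14056 genes, the lowest with a base mean of 1.31, were adjusted by the authors with the Benjamini-Hochberg method, and further genes have a p-value but no adjusted one. That adjustment was recomputed with a largest gap of 1.4e-07.

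The planned count test could not be used, because no values of single libraries are in the table. In its place, as planned for that case, calls rest on the authors' adjusted p-value (threshold 0.05). Implied means weigh both groups of 5 equally in the base mean. Genes seen as 1 read in 1 library gave the size factors, and these the estimated totals; intervals cover replicate error as the SE gives it. Gene lengths and overlaps came from GENCODE M21 (GRCm38), promoter windows from RefSeq (GRCm38.p6). Calculations used Python 3.11.15, numpy 2.4.6, pandas 2.3.3 and scipy 1.17.1 and were tested on simulated data. The 10 genes and the lists were chosen with earlier results of these data known. Named were all 10 genes and, of the related list, called genes and the smallest p-value of each subgroup, except that some genes counted in the list are not reported here by name. Other related genes, the comparison of pairs of genes and the class of base mean of each gene were added after the values were seen. Alternatives were other thresholds, filters, adjustments, scalings and gene lengths.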

Additional observations from a re-analysis of the deposited data

How the results depend on the processing

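No paired analysis was possible because the table holds no values of single libraries, and for the same reason the fits without each replicate, the count tests and their other normalizations were not run. Of the 8 calls among the 10 genes, all 8 held with adjustment over every gene with a p-value, with median-centring and with a base mean of at least 10 or 100, and Slc8a1 was lost at a threshold of 0.01. A minimum log2 fold change of 0.5 left 5 calls, 4 of them lower, without Trdn, Asph and Slc8a1. Equal totals also left 5, with 4 lower, and turned Pln to 0.083 and Fkbp1b to 0.059. In the related list the minimum of 0.5 left 13 calls, with 4 higher and 9 lower, and equal totals gave 24 higher and 9 lower, with values near 0 or changed in sign for Tmem38a (0.0026), Calu (0.12), Atp2b1 (0.013), Ppp1ca (0.020) and Smdt1 (listed as 1500032L24Rik, 0.017). Over all genes, the 4792 calls became 2735 with the minimum of 0.5 (1489 higher, 1246 lower), and equal totals gave 5685 higher and 927 lower. These follow from the construction of each alternative: fewer genes can pass, or 0.29 is added to every gene. With the longest transcript as gene length, the level per kilobase was 27940 for Pln, 1251 for Trdn, 897 for Asph and 898 for Camk2d. A called gene needed a Wald statistic of at least 2.39 in size, which with its SE of 0.45 puts Fkbp1b out of reach of any but large changes.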

Other observations

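Of 6 genes of mitochondrial calcium uptake tested, 3 fell and 0 rose, where 17.4% of all genes were lower and 16.6% higher. Of the 3 with base means of at least 1000, 2 fell, against 42.1% of all genes at that level. Mcu, the pore of the uniporter, listed under its older symbol Ccdc109a, had a log2 fold change of -0.81 (SE 0.11; adjusted p = 1.4e-11) in the authors' deposited table. Vdac2, a channel of the outer mitochondrial membrane, had -0.49 (SE 0.08; adjusted p = 6.2e-09) and Smdt1, a uniporter subunit, -0.27 (SE 0.08; adjusted p = 0.0055) there, with Smdt1 at 0.017 if both groups are set to equal totals.

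Of 8 transport genes of the cell membrane tested besides Slc8a1, 3 fell and 1, Slc8a3, rose, where 17.4% of all genes were lower and 16.6% higher. Of the 4 with base means of at least 1000, 2 fell, against 42.1% of all genes at that level. Fxyd1, which encodes phospholemman, a regulator of membrane ion transport, had a log2 fold change of -0.39 (SE 0.10; adjusted p = 5.1e-04), and Atp2b1, a calcium pump of the cell membrane, -0.28 (SE 0.09; adjusted p = 0.0085) in the authors' deposited table, with Atp2b1 at 0.013 on equal totals. Of 4 genes of store-operated calcium entry (Stim1, Stim2, Orai1 and Orai3), 0 passed the authors' adjusted Wald p-value of 0.05. Of all genes, 26.7% passed at base means from 10 to 100, where Stim1 lay. The share was 39.3% from 100 to 1000, where the others lay. A count of 0 among 4 genes does not set them apart from these shares. Of the 4, 1, Orai1, had an unadjusted p-value under 0.05, with a log2 fold change of 0.19 (SE 0.10) in the authors' deposited table and 0.48 on equal totals (adjusted p = 5.7e-06). D830005E20Rik, an antisense gene within Trdn that shares 0 exon bases with it and was picked after its value was seen, had -0.53 (SE 0.13; adjusted p = 4.3e-04) in the authors' deposited table.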
